A study of Mus musculus with 8 samples.

Results

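Lung epithelial progenitors are set apart by a small group of DNA-binding proteins and their partners, and 10 genes of this kind were followed here in lungs of mouse fetuses with and without tracheal occlusion (TO). The 10 genes, out of 55385 in the count tables, were chosen with earlier results of these data known. They were matched by symbol, each to 1 gene. They were Nkx2-1, Foxa1, Foxa2 and Gata6, which act in most lung epithelial cells, Sox2 of the proximal airways, Sox9, Id2 and Mycn of the distal tips, and the forkhead repressors Foxp1 and Foxp2. No factor passed the test of TO against control lungs. Foxp2 had the smallest p among the 10, and Foxp2 and Mycn had the largest differences, both toward lower values in TO. Among the 7 deeply sequenced lungs, Mycn and Id2 were lowest in the pair of lungs lowest in cell cycle genes. For Mycn 1 lung of this pair nearly tied with TO 2, and the shallow library TO 1 did not share the pattern.

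Fetuses were C57BL/6, and whole lungs were collected from 4 control and 4 TO fetuses at E18.5, where E is the day of gestation. In TO fetuses a suture passed through the wall of the uterus had closed the trachea together with a carotid artery and a jugular vein at E16.5, so the vessels were tied in the same animals as the airway, and their effects cannot be told apart in these groups. The dams received progesterone the day after the operation. The methods say nothing of a suture around other structures in controls, and the labels give for each lung a group, a number, the tissue, the strain and the age. A specimen code that came with the deposited data is shared by control and TO lungs: controls 1 and 4 and TO 1 and 4 hold the same code, both lungs of number 2 another and both of number 3 another. No source says what the code stands for or which fetuses were littermates, so p-values measure the spread between these lungs. The fit given first for each comparison used 6 lungs, controls 1, 2 and 4 and TO 2, 3 and 4. The specimens drawn in the mRNA-seq figure of the study are the same. Control 3 and TO 1 were added in fits of all 8.

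Read pairs on genes numbered 22822261 to 35002061 in 7 libraries and 270078 in TO 1, which is 0.878% of the median of the others. Levels are given as CPM, a gene's read pairs scaled to the same library total, after TMM scaling, which matches libraries through their typical gene. TO 1 also stood apart in its content. The thymocyte genes Rag1 and Cd3g were at 162 and 86.1 CPM in TO 1 and at most at 9.45 and 1.73 CPM in the other 7, and the basal keratin gene Krt5 was at 193 CPM in TO 1 against 0.0325 to 24.3 CPM. In the 6 lungs, edgeR's quasi-likelihood test called 0 of 21859 genes (0.00%) at an adjusted p under 0.1, where 1123 genes had an unadjusted p under 0.05. By DESeq2, 44 genes were called (0.239% of those it gave an adjusted p), and none of the 10 factors was among them. With all 8 libraries edgeR called 0 of 22545 genes (0.00%), against 7 with DESeq2.

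The epithelium of the lung arises from foregut endoderm marked by Nkx2-1. As the airway tree branches, cells at the distal tips that hold Sox9, Id2 and Mycn divide and leave behind stalk cells that hold Sox2 and form the conducting airways, and tip descendants later become alveolar type 1 and type 2 cells. Foxa1, Foxa2 and Gata6 work with Nkx2-1 on genes of surfactant and secretory cells, and Foxp1 and Foxp2 act mainly as repressors in airway and alveolar epithelium. Late in gestation the tips are nearly gone and alveolar cells mature. Several of the factors are also used outside the epithelium, for example Gata6 and Foxp1 in mesenchyme, vessels or heart and Sox9 in airway cartilage, and a whole lung does not separate these sources.

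All 10 factors were measured well above the filter of 5 read pairs in 3 libraries. Per kilobase of exon, which allows comparison between genes, median levels in the 6 lungs were 198 CPM per kb for Nkx2-1, 60.5 for Id2, 21.3 for Foxa1, 20.8 for Foxa2, 14.8 for Gata6, 11.5 for Foxp1, 10.1 for Foxp2, 8.96 for Sox9, 6.07 for Sox2 and 4.40 for Mycn. Nkx2-1 stood above Id2, Id2 above Foxa1 and Gata6 above Foxp1 in all 6 lungs without overlap. Every other pair of neighbours in this order overlapped in range. The length counts every annotated exon of a gene, 13751 bases for Foxp1 and 6508 for Gata6, so the order depends on it. In CPM without this division Foxp1 lay above Gata6 in all 6 lungs.

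**Figure D1:**
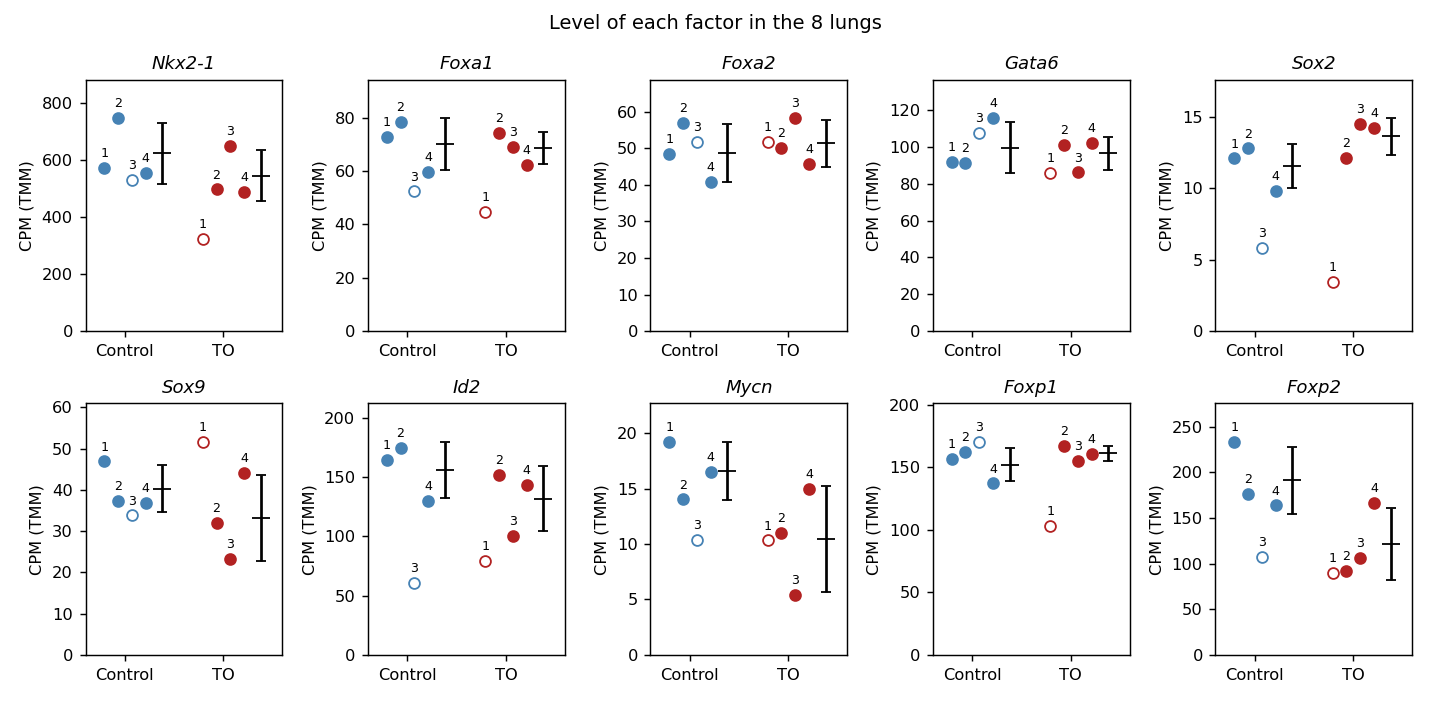
Level of each factor (y axes, CPM after TMM) in control and TO lungs (x axes), with 1 point per lung labelled by replicate number. Filled points are the 6 lungs of the first fit, open points are control 3 and TO 1, and black marks give mean ± SD of the filled points (n = 3); for every factor the filled points of the 2 groups overlap in range.

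Nkx2-1, which specifies the lung field and drives surfactant genes, lies on the minus strand at chr12:56531958-56536908 of GRCm38. Its level was 571, 747, 529 and 554 CPM in controls 1 to 4 and 324, 497, 648 and 489 CPM in TO 1 to 4. TO 3 lay above 3 of the 4 controls while TO 2 and TO 4 lay below all of them, so that the groups overlapped. In the 6 lungs the mean was 624 ± 107 CPM in controls and 545 ± 89.7 CPM in TO (SD, n = 3 each), and the log2 fold change was -0.20 (SE 0.16, adjusted p = 0.912, edgeR). The 94 read pairs of TO 1 carry an exact 95% Poisson interval of 262 to 396 CPM, which covers counting error only and lies below every other lung. Thyroid cells also express Nkx2-1, but only 3 of 8 thyroid genes passed the filter, and of these Tg and Slc5a5 were between 0 and 3.44 CPM in all 8 lungs and Iyd between 0 and 7.01 CPM.

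The forkhead factors Foxa1 and Foxa2, which open chromatin in endoderm, had fold changes near 0, as had Gata6 and Foxp1. Foxa1 (chr12:57540628-57546916, minus strand) was at 72.7, 78.3, 52.3 and 59.5 CPM in controls 1 to 4 and at 44.8, 74.2, 68.9 and 62.3 CPM in TO 1 to 4. The 3 deeply sequenced TO lungs lay within the control range, and the log2 fold change in the 6 lungs was -0.04 (SE 0.13, adjusted p = 0.982, edgeR), with the sign turning in 8 of 22 alternative fits. Foxa2 (chr2:148042877-148046969, minus strand) had 48.3, 56.9, 51.8 and 40.9 CPM in the controls and 51.6, 50.1, 58.2 and 45.6 CPM in the TO lungs. The fitted log2 difference was 0.07 (SE 0.15, adjusted p = 0.975, edgeR), and the sign turned in 3 of the 22 alternatives. Liver cells use Foxa2 as well, and the liver gene Alb reached 504 CPM in control 1 and 240 CPM in TO 4, against 1.66 to 44.8 CPM in the other lungs. The part of liver in the Foxa1 and Foxa2 levels was not tested.

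**Figure D2:**
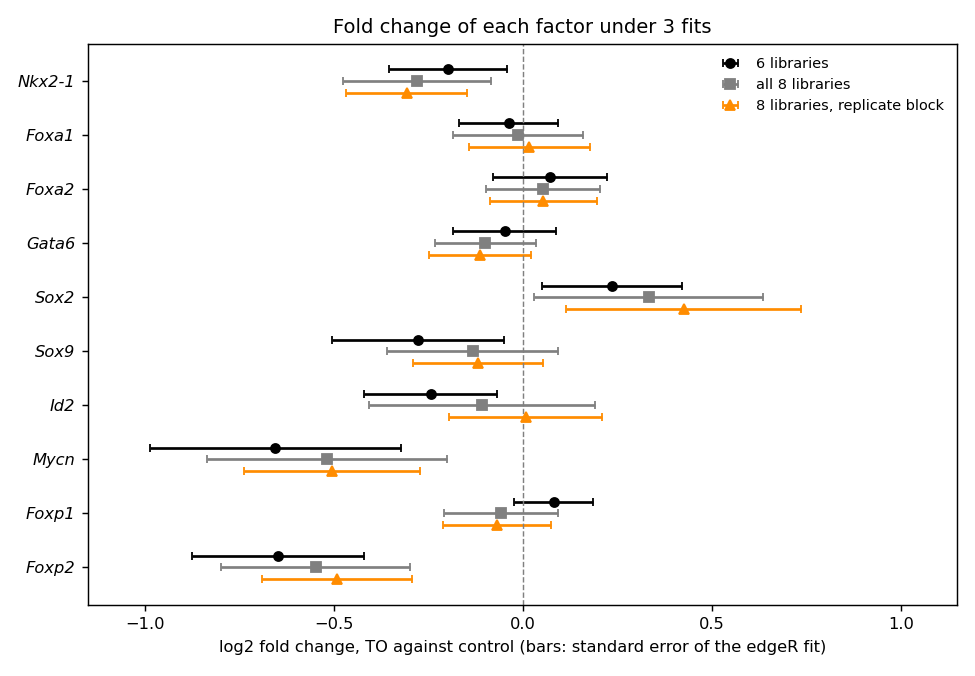
Log2 fold change of TO against control (x axis) for each factor (y axis), from edgeR fits of 6 lungs, of all 8 lungs and of all 8 lungs with the replicate number as a block; bars are standard errors of the fit. Nkx2-1, Foxp2 and Mycn lie below 0 by more than their bars in all 3 fits, and Sox2 lies above 0 by more than its bar. Foxa1, Id2 and Foxp1 change side of 0 between fits.

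Gata6, a zinc finger factor of distal epithelium, smooth muscle and heart, lies on the plus strand at chr18:11052064-11085635. Its level was 91.8, 91.2, 107 and 116 CPM in controls 1 to 4 and 86.1, 101, 86.1 and 102 CPM in TO 1 to 4. The groups overlapped, and the log2 fold change was -0.05 (SE 0.14, adjusted p = 0.981, edgeR). Of its exonic length, 1.43% is shared with a gene on the opposite strand, which unstranded counts cannot tell apart. The log2 fold change was 0.03 from first-strand counts and -0.10 from second-strand counts. The first strand held 49.9% to 50.1% of read pairs in each library, so neither count separates the genes. Heart muscle genes differed far more between lungs than Gata6 did. Myh6, the atrial myosin heavy chain, was at 299, 167, 1900 and 1424 CPM in controls and 1374, 1032, 1599 and 1380 CPM in TO, and the mean log2 CPM of 10 heart genes ranged from 4.99 in control 1 to 8.96 in TO 1. The part of heart tissue in the Gata6 level was not tested.

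Sox2, the factor of proximal airway and basal progenitors, had low levels. It lies on the plus strand at chr3:34650405-34652461. Controls 1 to 4 had 12.1, 12.8, 5.81 and 9.81 CPM, and TO 1 to 4 had 3.44, 12.2, 14.5 and 14.2 CPM. TO 3 and TO 4 were the highest of all 8 lungs, while TO 2 lay between controls. The value of TO 1 rests on 1 read pair, with an exact 95% Poisson interval of 0.0872 to 19.2 CPM that spans all other lungs. In the 6 lungs the mean was 11.6 ± 1.56 CPM in controls and 13.6 ± 1.28 CPM in TO (SD, n = 3 each), with a log2 fold change of 0.24 (SE 0.19, adjusted p = 0.914, edgeR). Stratified epithelium of the oesophagus holds Sox2 too. Its keratin genes Krt13 and Krt4 were at 104 and 149 CPM in control 1 and at 106 and 133 CPM in TO 4, against 0.289 to 24.1 CPM for both in the other 6 lungs, and Sox2 stood at 12.1 and 14.2 CPM in these lungs. The part of this tissue in the Sox2 levels was not tested.

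Sox9, which marks distal tips and is needed for normal branching, lies on the plus strand at chr11:112782224-112787760. Levels were 46.9, 37.2, 33.8 and 36.9 CPM in controls 1 to 4 and 51.6, 32.0, 23.3 and 44.2 CPM in TO 1 to 4. The TO lungs spread wider than the controls and enclosed their whole range, with TO 3 lowest. The mean in the 6 lungs was 40.3 ± 5.70 CPM in controls and 33.2 ± 10.5 CPM in TO (SD, n = 3 each), and the log2 fold change was -0.28 (SE 0.23, adjusted p = 0.914, edgeR). Chondrocytes also hold Sox9, and their collagen gene Col2a1 was at 9.77, 5.59, 7.97 and 19.9 CPM in controls and at 62.0, 24.5, 15.4 and 14.2 CPM in TO. Another cartilage collagen gene, Col9a2, was at 22.4, 16.5, 7.66 and 25.9 CPM in controls and at 31.0, 19.2, 13.2 and 27.8 CPM in TO. For Col9a2, as for Sox9, control 3 was the lowest control, TO 3 the lowest TO lung and TO 1 the highest lung, whereas for Col2a1 control 2 and TO 4 were the lowest of their groups. The part of cartilage in the Sox9 levels was not tested.

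The balance of proximal to distal factors was read within each lung as log2 CPM of Sox2 minus that of Sox9, a difference that library scaling does not touch. It was -1.95, -1.54, -2.52 and -1.90 in controls 1 to 4 and -3.88, -1.39, -0.68 and -1.63 in TO 1 to 4. In the 6 lungs the mean was -1.80 ± 0.23 in controls and -1.23 ± 0.49 in TO (SD, n = 3 each), 0.56 higher in TO, with TO 4 inside the control range. The difference was 0.29 without TO 3 and 0.74 in the 7 lungs without TO 1. With all 8 lungs the difference was 0.08, since TO 1 with its 1 Sox2 read pair was the lowest of all.

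Id2, an inhibitor of basic helix-loop-helix factors found in tip progenitors and in many dividing cells, lies on the minus strand at chr12:25093799-25097140. It was at 164, 175, 60.5 and 130 CPM in controls 1 to 4 and at 79.2, 152, 101 and 143 CPM in TO 1 to 4. Control 3 was the lowest lung of all and TO 1 and TO 3 came next, so that both groups held high and low lungs. The log2 fold change was -0.24 in the 6 lungs (SE 0.17, adjusted p = 0.909, edgeR) and 0.01 in all 8 with the replicate number as a block.

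Mycn, the Myc family member that keeps tip progenitors dividing, lies on the minus strand at chr12:12936093-12941914. Its level was 19.2, 14.0, 10.4 and 16.5 CPM in controls 1 to 4 and 10.3, 11, 5.45 and 15 CPM in TO 1 to 4. TO 4 lay above control 2, so the groups overlapped, and TO 3 was the lowest lung. The mean in the 6 lungs was 16.6 ± 2.60 CPM in controls and 10.5 ± 4.79 CPM in TO (SD, n = 3 each), and the log2 fold change was -0.66 (SE 0.33, adjusted p = 0.907, edgeR). It was -0.34 without TO 3 and -1.0 without TO 4. Without TO 3 the values for Sox9 and Id2 were -0.07 each. The value of TO 1 for Mycn rests on 3 read pairs and has an exact 95% Poisson interval of 2.13 to 30.2 CPM.

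Lungs of the same number could be set against each other, since their deviations from the group means were correlated. The correlation was weak for number 1, at 0.12 against 0.35 to 0.39 for the others. Control 1 correlated best with TO 4, which holds the same specimen code, so the pairing of numbers 1 and 4 is uncertain. Mycn was lower in TO in all 4 pairs, by log2 ratios of -0.90, -0.35, -0.93 and -0.14 for numbers 1 to 4, a pattern that 8.33% of all genes tested share. It was the only one of the 10 factors to do so. The value for number 1 rests on 3 read pairs in TO 1, whose Poisson interval (2.13 to 30.2 CPM) holds the level of control 1. With the replicate number as a block in all 8 lungs the log2 fold change of Mycn was -0.50 (unadjusted p = 0.0491, edgeR). The same block in the 6 lungs gave -0.24 (unadjusted p = 0.33, edgeR). There control 1 and TO 3 have no partner of their number, so only numbers 2 and 4 bear on the difference. In all 8 lungs Foxp2 was the other factor with an unadjusted p under 0.05 toward lower values in the blocked fit, as were 1.67% of all genes. In either direction 2 of the 10 factors and 993 of 22545 genes had such a p in the blocked fit. That fit called 3 genes (0.0133%) at an adjusted p under 0.1, none of them a factor followed here.

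**Figure D3:**
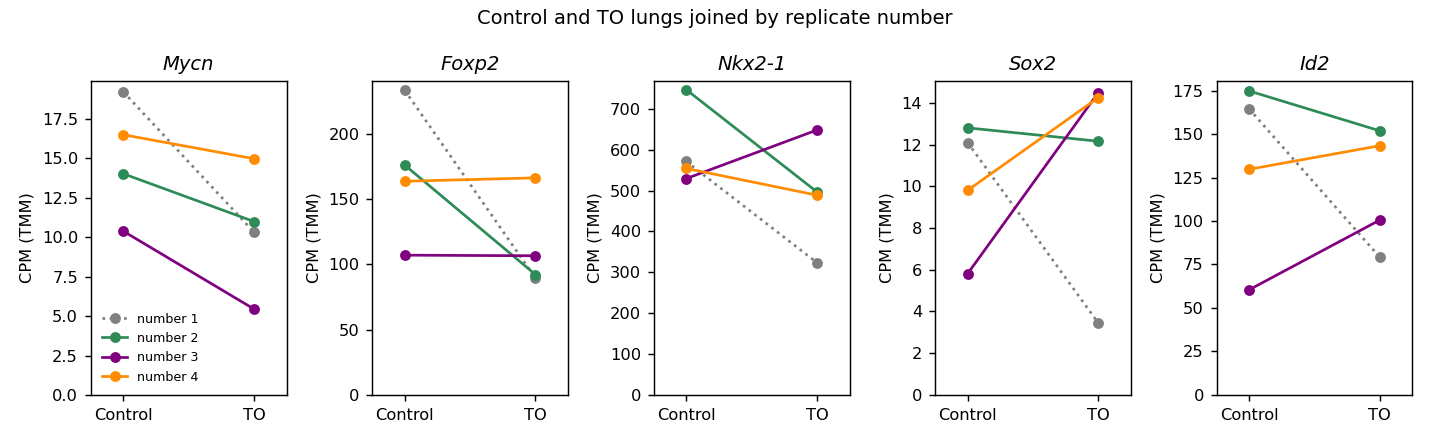
Levels of 5 factors (y axes, CPM after TMM) in control and TO lungs (x axes), with lines joining lungs of the same replicate number and the dotted line for number 1, whose TO lung has 270078 read pairs. Mycn slopes down in all 4 pairs, Foxp2 in numbers 1 and 2 with numbers 3 and 4 nearly level, and Sox2 and Id2 slope in both directions.

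Foxp1 and Foxp2 are related forkhead repressors that can pair with each other. Foxp1 (chr6:98925338-99522721, minus strand) was at 156, 162, 170 and 137 CPM in controls 1 to 4 and at 103, 167, 155 and 161 CPM in TO 1 to 4. TO 2, TO 3 and TO 4 all lay within the control range, and the log2 fold change was 0.08 (SE 0.10, adjusted p = 0.955, edgeR). Genes on the same strand share 3.16% of its exonic length.

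Foxp2 (chr6:14901349-15441977, plus strand) was at 233, 176, 107 and 164 CPM in controls 1 to 4 and at 89.5, 92.2, 107 and 166 CPM in TO 1 to 4. TO 1 to 3 were the lower end of the series together with control 3, and TO 4 lay above 2 of the controls, so that the groups overlapped. In the 6 lungs the mean was 191 ± 37.1 CPM in controls and 122 ± 39.3 CPM in TO (SD, n = 3 each). The log2 fold change was -0.65 (SE 0.23, unadjusted p = 0.0189, adjusted p = 0.907, edgeR). In either direction 1 of 10 factors, Foxp2, and 1123 of 21859 genes had an unadjusted p under 0.05. Toward lower values alone the share of all genes was 2.07%, a direction taken with the value of Foxp2 in view. With DESeq2 the adjusted p was 0.353. Without TO 4 the log2 fold change was -0.94 and the adjusted p 0.0907, a fit in which 144 genes (0.692%) were called and Foxp2 was the only one of the 10. By number, over all 8 lungs, the log2 ratios were -1.38, -0.93, -0.01 and 0.02. By this reading the difference lay in numbers 1 and 2, with 26 read pairs in TO 1, and control 3 was as low as TO 3. It rests on the pairing of numbers 1 and 4, which share a specimen code, and control 1 correlated best with TO 4. With these partners exchanged, TO was lower for control 1 with TO 4 (233 and 166 CPM) and for control 4 with TO 1 (164 and 89.5 CPM). The fit of 6 lungs holds neither TO 1 nor control 3. Its log2 fold change was -0.55 without TO 3 and -0.48 without control 1.

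Over the 10 factors, 7 had a fold change below 0 and 3 above it, with a median of -0.12, against 49.3% of all genes above 0 and a median near 0. None of the 10 had groups that did not overlap in the 6 lungs, against 10.9% of all genes. With the replicate number as a block in the 6 lungs, edgeR called 219 genes (1.0%) and again none of the 10, where Nkx2-1 had a log2 fold change of -0.38 (adjusted p = 0.394) and Foxp2 one of -0.45 (adjusted p = 0.470).

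In a whole lung, fewer cells of a type and less RNA per cell cannot be told apart, so each factor was also set against 15 genes that epithelial cells share, such as Cdh1, Krt8 and Krt19. All 15 had a fold change below 0 in the 6 lungs, with a median of -0.27, and in all 8, with a median of -0.41, though none passed the test. Cdh1, which encodes E-cadherin, was at 624, 570, 538 and 550 CPM in controls 1 to 4 and 344, 533, 560 and 473 CPM in TO 1 to 4. Krt8 was at 323, 328, 384 and 268 CPM in controls and 203, 290, 254 and 224 CPM in TO. The mean log2 CPM of the 15 genes was 6.86 to 7.16 in controls and 6.33 to 6.88 in TO.

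Relative to that mean, Foxa1 was higher by 0.27 in log2 units, Foxa2 by 0.38, Sox2 by 0.54 and Foxp1 by 0.38 in the TO lungs of the 6, and for these 4 factors every TO lung lay above every control. The same held for 21.1% of all genes tested, whose median difference was 0.29 on this scale. In all 8 lungs Foxa1, Foxa2 and Foxp1 remained without overlap, at 0.34, 0.48 and 0.30, against 9.19% of all genes and a median of 0.31, and Sox2 overlapped. Foxa2 relative to the epithelial genes was -1.49, -1.33, -1.41 and -1.51 in controls 1 to 4 and -0.64, -1.23, -0.83 and -1.13 in TO 1 to 4. Nkx2-1 differed by 0.10 on this scale in the 6 lungs, where Mycn was at -0.47 and Foxp2 at -0.38, and in all 8 both were at -0.16. These are values without a test, and Foxp1 is expressed outside the epithelium too.

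**Figure D4:**
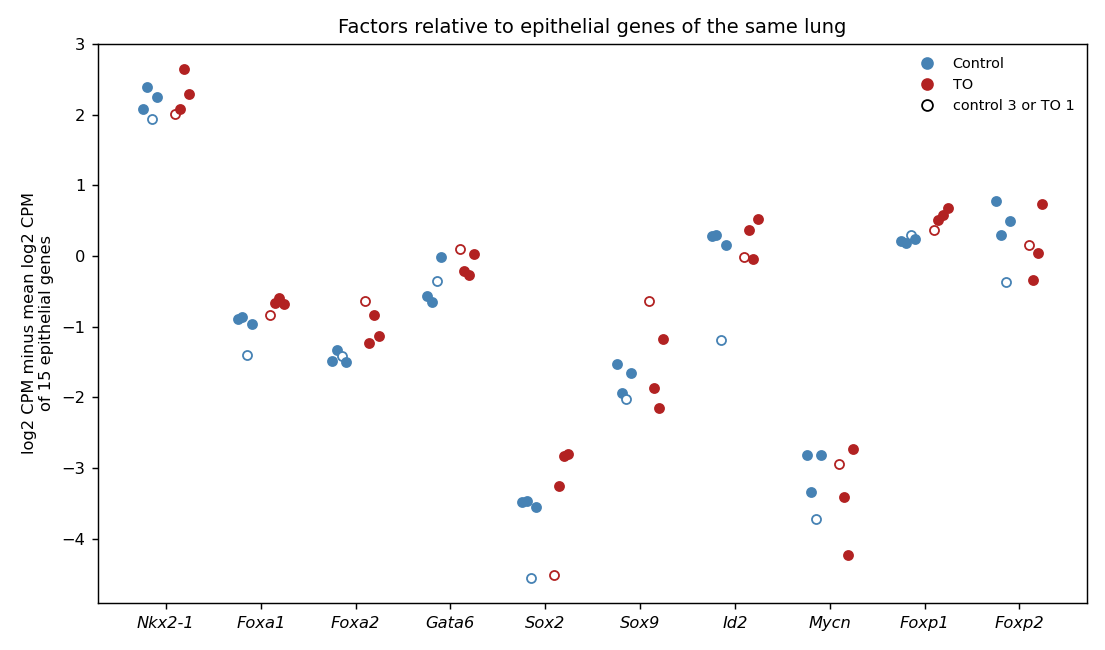
Log2 CPM of each factor (x axis) minus the mean log2 CPM of 15 epithelial genes in the same lung (y axis), with 1 point per lung, open for control 3 and TO 1. For Foxa1, Foxa2 and Foxp1 all 4 TO lungs lie above all 4 controls, while Mycn, Foxp2 and Nkx2-1 overlap.

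Genes of the cell cycle varied between lungs of the same group. The mean log2 CPM of 16 such genes, among them Mki67, Top2a and the replication helicase gene Mcm6, was 6.67, 6.49, 4.60 and 6.31 in controls 1 to 4 and 6.71, 5.92, 4.85 and 6.41 in TO 1 to 4. Control 3 and TO 3 stood apart as low in these genes. Mki67 was at 644, 483, 180 and 522 CPM in controls and 510, 287, 131 and 498 CPM in TO. All 16 had a fold change below 0 in the 6 lungs, with a median of -0.69 and none called, and the median was -0.27 in all 8. Among the 7 deeply sequenced lungs these were the lowest for Mycn and for Id2, and with TO 2 the lowest for Sox9. TO 1 had the highest mean of the cell cycle genes with 79.2 CPM of Id2 and 10.3 CPM of Mycn, and Sox9 differed little between controls 2, 3 and 4. The part of cell division in these levels was not tested.

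**Figure D5:**
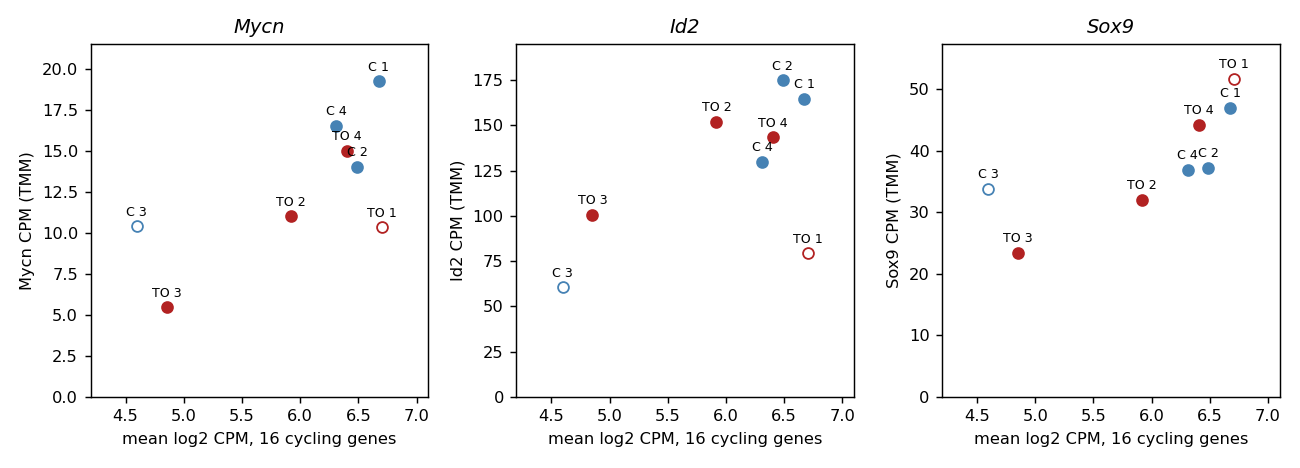
Level of Mycn, Id2 and Sox9 (y axes, CPM after TMM) against the mean log2 CPM of 16 cell cycle genes (x axes), with 1 point per lung (C, control), open for control 3 and TO 1. For Mycn and Id2, control 3 and TO 3 lie at the low end of both axes, and TO 1 lies at the high end of the x axis with low Mycn and Id2. For Sox9, TO 3 is lowest and control 3 lies between TO 2 and control 4.

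The genes most like each factor over the 7 deeply sequenced lungs were looked for among 10765 genes at a mean of 10 CPM or more, by Pearson correlation of log2 CPM. For Mycn they were Dlgap5 and Kif4, which act on the mitotic spindle, and Vdac3, with r of 0.99, 0.98 and 0.99. For Id2 they were Unc5c, a netrin receptor gene, and the replication genes Cdc45 and Mcm6, all with r of 0.99. For Sox9 they were Igf1, Glo1 and Ccdc127 (r = 0.99, 0.99 and 0.98), for Sox2 Tsn, Mettl17 and the airway mucin gene Muc4 (r = 0.98, 0.96 and 0.96), and for Nkx2-1 Cpsf7, Clk2 and Phkg2 (r = 0.97 each). An r over 0.9 was reached by 5.30% of genes for Id2, 1.57% for Mycn, 0.994% for Sox9, 0.372% for Sox2 and 0.251% for Nkx2-1. These 7 points share their libraries and the low values of control 3 and TO 3, and are a description.

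The promoters of Mycn and Id2 are shown because, among the 7 deeply sequenced lungs, both genes were lowest in the lungs lowest in cell cycle genes. TO 1 did not share this pattern. Each promoter is the 250 bases before a start annotated by RefSeq on GRCm38.p6, written 5′ to 3′ on the minus strand that carries the gene. These starts differ from the gene coordinates given above. The Id2 window lies within the coordinates of its gene, and the Mycn window overlaps the 5′ end of its gene. Of the 10 factors 7 had such an entry, with 11 promoters in all. The words TTTGGCGC, TTTCGCGC and TTTCCCGC, forms of the site bound by E2F factors of the cell cycle, were searched on both strands. Capitals mark matches.
Mycn, chr12:12941837-12942086: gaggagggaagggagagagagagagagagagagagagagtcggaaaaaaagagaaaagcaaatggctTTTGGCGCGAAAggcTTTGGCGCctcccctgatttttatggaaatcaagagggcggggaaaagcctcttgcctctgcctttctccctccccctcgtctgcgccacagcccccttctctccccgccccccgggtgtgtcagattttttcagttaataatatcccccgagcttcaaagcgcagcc
Id2, chr12:25096093-25096342: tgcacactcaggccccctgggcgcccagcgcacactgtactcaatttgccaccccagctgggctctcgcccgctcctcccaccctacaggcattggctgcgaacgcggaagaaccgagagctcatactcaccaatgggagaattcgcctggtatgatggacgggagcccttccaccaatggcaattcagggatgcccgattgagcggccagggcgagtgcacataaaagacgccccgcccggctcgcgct
The Mycn promoter held 3 matches, TTTGGCGC at -183 to -176 and -168 to -161 from the start and TTTCGCGC on the other strand at -179 to -172, which overlaps the first match. Of 32851 promoters, 1.53% held at least 1 of the words, and Mycn was the only one of the 7 factors that did. The Id2 promoter held none of them. It held the word CCAAT 3 times, on either strand, as 33.8% of all promoters did at least once. The forkhead words TGTTTAC and TGTTTGC were searched too. They occurred in 7.29% of all promoters and, among the factors, in those of Foxa1 and Foxp1 only. A match is a description of the sequence and not a bound site.

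Among 17 measured relatives of the factors, 10 had a fold change above 0 and 7 below it in the 6 lungs (median 0.32), and none was called. The most abundant were Foxp4 (log2 fold change -0.12), Id1 (-0.17) and Id3 (-0.26). Gata5 and Myc had an unadjusted p under 0.05. Gata5, a factor of heart and gut lineages, was at 32.9, 37.9, 7.76 and 31.9 CPM in controls 1 to 4 and 20.7, 25.9, 14.3 and 27.6 CPM in TO 1 to 4, with a log2 fold change of -0.59 (adjusted p = 0.907, edgeR) in the 6 lungs and -0.30 in all 8. Myc was at 28.2, 20.0, 9.55 and 22.6 CPM in controls and 41.3, 19.3, 14.4 and 17.5 CPM in TO, with -0.47 (adjusted p = 0.907, edgeR) in the 6 lungs and -0.05 in all 8. As for Mycn, control 3 was the lowest control for both genes and TO 3 the lowest TO lung.

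Of 25 other lung epithelial transcription factors, 7 had a fold change above 0 and 18 below it (median -0.12), and none was called. The most abundant were Nfib, which promotes maturation of the late fetal lung (-0.10), Etv5, a target of FGF signalling in tips and type 2 cells (-0.25), and Sox4 (-0.14). Of 12 tip signalling genes 8 lay below 0 (median -0.15), with the FGF receptor gene Fgfr2 at 0.01 and Dusp6, an FGF feedback gene, near 0. Shh, the tip ligand that signals to mesenchyme, was singled out after its values were seen. It was at 91.8, 113, 56.3 and 71.8 CPM in controls 1 to 4 and 34.4, 70.8, 59.7 and 59.4 CPM in TO 1 to 4, with a log2 fold change of -0.54 (unadjusted p = 0.00927, adjusted p = 0.907, edgeR).

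The mature genes that Nkx2-1 and Foxa factors are known to drive lay mostly on the other side. Of 15, 12 had a fold change above 0, with a median of 0.38, and none was called. Sftpb, the surfactant protein B gene, was at 926, 1687, 1105 and 1036 CPM in controls 1 to 4 and 616, 2231, 1654 and 880 CPM in TO 1 to 4. Sftpc was at 7771, 11020, 7502 and 5922 CPM in controls and 4431, 12790, 9661 and 5631 CPM in TO. Slc34a2, the phosphate transporter gene of type 2 cells, was at 981, 1341, 1748 and 1149 CPM in controls and 671, 2380, 2257 and 946 CPM in TO, with a log2 fold change of 0.68 (unadjusted p = 0.0472, adjusted p = 0.907, edgeR). TO 2 and TO 3 were the highest TO lungs for all 3 genes, TO 4 and TO 1 lay below every control, and control 2 was high for Sftpb and Sftpc. The median of the 15 genes was 0.19 in all 8 lungs and 0.05 with the replicate number as a block.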

How the data were processed

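RNA of whole lungs was made by the authors into NexteraXT libraries, sequenced as 150-bp read pairs and aligned to GRCm38 with STAR; the version and annotation are not given in the sources used here, and the submitters' processing notes name STAR, DESeq2 and mm10. The authors deposited raw counts for every gene, in read pairs, with no normalization or filter, and the column of both strands together was used. Rows that name no gene held 23.1% to 27.1% of read pairs and were left out. Symbols, coordinates and exon lengths were taken from GENCODE M21, to which 55144 of 55385 IDs matched without their version.

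Genes with at least 5 read pairs in 3 or more libraries were tested by the quasi-likelihood test of edgeR 4.0.16 in R 4.3.3, with TMM scaling. P-values were adjusted by Benjamini-Hochberg across the whole tested set, and the study's threshold of 0.1 was kept. DESeq2 1.42.0 and limma 3.58.1 served as alternatives, and Python 3.11.15 for tables and figures. CPM used TMM factors of all 8 libraries, and log2 CPM a prior count of 2. The fits were tested on simulated data. No interval other than that of single counts in TO 1 was given, and reads carry no molecular identifiers.

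The 10 factors and all companion lists were chosen with earlier results of these data known. Named were the factors, the 3 most abundant tested genes of each list and any called, relatives of the factors with an unadjusted p under 0.05, and the 3 genes most correlated with Nkx2-1, Sox2, Sox9, Id2 and Mycn. Any further gene was picked with its values in view. For 2 lists, 1 gene that this rule names is not reported here.

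The labels number the lungs 1 to 4 in each group. Deviations of lungs of the same number from their group means correlated at 0.12, 0.35, 0.39 and 0.36 over 10825 genes at a mean of 10 CPM or more, all above 0.1, so the numbers were taken to pair the lungs. Numbers 2 and 3 each have a specimen code of their own, shared by both groups, while numbers 1 and 4 share a code, and control 1 correlated best with TO 4. The code was therefore also used as a block; no source states a shared litter.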

Additional observations from a re-analysis of the deposited data

Results flagged for a closer look

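Of 48 sets of 4 lungs examined (the 10 factors and 14 list means, in each group), 1 had a lung farther from the others than Dixon's 95% limit allows, where chance gives about 1 in 20. In TO 1 the mean log2 CPM of the 25 other lung epithelial transcription factors was 4.34, against 4.84 to 4.91 in TO 2 to 4. TO 1 has 270078 read pairs on genes, and 2 of these 25 genes have none there.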

How the results depend on the processing

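Of 22 alternatives per factor, Nkx2-1, Sox2, Foxp2 and Mycn kept the direction of their log2 fold change in all. Foxp2 was the only factor called in any, without TO 4 (adjusted p = 0.0907, log2 fold change -0.94, range -0.94 to -0.48 over single lungs left out). With the replicate block, no call of a factor changed. In 6 libraries that block leaves only numbers 2 and 4 with a lung in each group. Genes called at an adjusted p under 0.1 numbered 0 at first, 40 with no filter on low counts, 44 with DESeq2, 7 with DESeq2 on all 8 libraries, 0 to 144 with single lungs left out (52 without control 4, 144 without TO 4), 219 with the replicate block in 6 libraries, 3 in 8, and 1 in 7 libraries (all but TO 1) with the specimen code as block. Mycn ranged from -1.0 to -0.34 with single lungs left out and was -0.24 with the replicate block in 6 libraries. The DESeq2 and voom fits of 8 libraries, the code block of 7 and the alternatives of the within-lung values were chosen after seeing the data.

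The direction turned, with adjusted p of at least 0.961, as follows. Foxa1 was 0.059 in 7 libraries, 0.0178 with the replicate block of 8, 0.00539 with the code block of 8, 0.0115 with DESeq2 of 8, 0.064 with voom of 8, 0.0613 with the code block of 7, and -0.141 to 0.0526 with single lungs left out. Foxa2 was -0.0104 with the replicate block of 6 and -0.0368 to 0.205 with single lungs left out. Sox9 was 0.0256 with the replicate block of 6. Id2 was 0.00767 with the replicate block of 8, 0.0128 with the code block of 8, 0.0826 with voom of 8 and 0.142 with the code block of 7. Gata6 was 0.0286 from first-strand counts and -0.103 to 0.0756 with single lungs left out. Foxp1 was -0.058 in 8 libraries, -0.0686 with the replicate block, -0.0516 with the code block and -0.0289 with DESeq2. The causes were not tested. The balance of Sox2 to Sox9 was 0.0824 in all 8 libraries against 0.56 in 6. Of the list medians, 255 moved by less than 1 SD and 31 by more. Depth limits TO 1 most, with 1 read pair for Sox2 and 3 for Mycn.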

Other observations

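Genes of tissues next to the lung, which use some of the same factors, were present at very different levels in some lungs. All 10 heart muscle genes had a fold change above 0 (median 1.16, 0 called). With single lungs left out the median ranged from 0.69 without TO 4 to 2.59 without control 4, and it was 0.89 in all 8 libraries. Tnnt2 was at 78.2, 64.5, 639 and 608 CPM in controls 1 to 4 and 1491, 324, 468 and 1025 CPM in TO 1 to 4. Actc1 was at 107 to 1377 CPM in controls and 519 to 1894 CPM in TO. Controls 1 and 2 were the low lungs. With the replicate block in 6 libraries, which compares numbers 2 and 4 only, 7 of the 10 were called. The 10 liver genes had a median of -0.63, or 3.20 without control 1 and 3.87 with the block in the 6 libraries, where 7 were called. The plasma protein gene Ahsg was at 72.4 CPM in control 1 and at 0.325 to 15.7 CPM elsewhere, and Trf at 304 to 621 CPM throughout.

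The 8 tested genes of stratified epithelium had a median near 0, with 3 called under the block in 6 libraries. The median was 0.66 without control 1, -1.17 without TO 4 and 0.65 in all 8 libraries. Krt15 was at 101 to 178 CPM in controls and 86.2 to 185 CPM in TO. Of 9 tested cartilage genes 4 were above 0 (median -0.11), with Col9a2 at -0.11 and Hapln1 at 0.04. Of 9 tested Schwann and nerve genes 5 were above 0 (median 0.34), with Erbb3 at -0.04 and Mbp at -0.09. The 3 tested thyroid genes had a median of -0.59. All 5 tested T cell genes were above 0 (median 1.86), but the median was 0.16 without TO 3, 3.28 without control 2 and -0.04 with the replicate block in the 6 libraries. Rag1 was at 9.45 CPM in TO 3, and the T cell kinase gene Lck was at 127 CPM in TO 1 and at 1.48 to 3.88 CPM in the other lungs. None of these lists had a gene called by edgeR or DESeq2 in the 6 libraries without the block.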
